A study of Mus musculus with 10 samples.

Results

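The 7 genes of the Six-Eya-Dach network described here were read in RNA-seq of the mouse frontonasal prominence, the embryonic swelling that gives rise to the forehead and the middle of the nose. They are Six2 and Six4, the 4 Eya genes Eya1, Eya2, Eya3 and Eya4, and Dach1. All were taken by symbol from the table of read counts, which has 35591 rows, and each of the 7 was found and had enough reads to be tested. The tissue came from E10.5 embryos of the FVB/NJ strain. There were 6 wild-type libraries (WT, replicates 1 to 3 labelled male and 4 to 6 labelled female) and 4 libraries from embryos homozygous for MommeD1 (MD1, replicates 1 and 4 labelled female, 2 and 3 labelled male). MommeD1 is a loss-of-function allele of Smchd1, which encodes a chromatin protein needed for gene silencing on the inactive X and at several autosomal clusters. It is a germline allele, present in every cell of the embryo, and the groups carry no other named allele or treatment. The labels do not say whether each library is 1 embryo, so p-values measure only the spread between these samples.

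SIX-family proteins are homeodomain transcription factors. EYA proteins carry no DNA-binding domain of their own. They bind SIX-family partners, act as their transcriptional co-activators and are also phosphatases. DACH proteins, relatives of the SKI family, act with them mainly as co-repressors. Together with PAX factors these families form a network first described in the fly eye, and in vertebrates they mark the cranial placodes, the ectodermal thickenings that give rise to the olfactory epithelium, the inner ear and sensory ganglia. Several members are also active outside placodes, in head and limb mesenchyme, kidney and muscle. Mutations of EYA1 or of SIX-family genes cause branchio-oto-renal syndrome in people, and mutations of EYA4 cause hearing loss.

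The libraries held 4195119 to 24125084 counts, the fewest in MD1 male replicate 3. Smchd1 was below every WT library in each MD1 library. It stood at 55.3, 99.9, 67.2 and 91.9 CPM (counts per 1000000 of the normalized library size) in MD1 replicates 1 to 4, against 229 to 265 CPM in WT. The library labelled MD1 female replicate 1 had 1855 reads of the Y-linked gene Ddx3y, which the libraries labelled female in WT and MD1 female replicate 4 lacked. Its level of Xist, the RNA of the inactive X, was 204 CPM, between the libraries labelled male (at most 2.08 CPM) and the WT females (2594 to 2695 CPM). It does not match its sex label. MD1 female replicate 4 stood apart from the others in several marker lists. Its summed level of 11 hypoxia response genes was 10560 CPM (1041 to 2378 in WT and 1345 to 2463 in the other MD1 libraries), and that of 6 erythroid markers was 19682 CPM (2908 to 4176 in WT and 2563 to 4138 in the other MD1 libraries). Values without these libraries stand beside several of the results that they move.

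The tissue label was checked on marker lists. All 10 facial mesenchyme markers were detected, with a summed level of 2487 to 3540 CPM in WT, and so were all 10 olfactory placode markers (315 to 431 CPM) and all 12 surface epithelium markers (298 to 389 CPM). Of 9 forebrain and eye neuroepithelium markers, 8 were tested (sum 241 to 383 CPM in WT), and Rax and Hesx1 were at 0 in some libraries. The libraries are thus mixtures, in which the cells that held each transcript were not resolved. In such bulk samples fewer cells of a type and less RNA per cell cannot be told apart.

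Promoter sequence is shown for 3 of the genes as a description, and its relation to the levels was not tested. The windows of Six2 and Dach1 were chosen, after the levels were seen, because these genes ran in opposite directions over the libraries, and a window of Six4 because it alone held the letters of a known SIX-binding site, the MEF3 site. Of the 7 genes, 5 matched RefSeq promoter windows (GRCm38.p6, 250 bases before and 50 from each start), with 7 windows in all. The 5 motifs below were searched on both strands, namely the MEF3 site TCAGGTTTC, the GC box GGGCGG, the CCAAT box CCAAT, the TATA box TATAAA, and the core of the hypoxia response element, ACGTG or GCGTG. No motif contains another. Matches are in capitals, in the reading direction of the gene, and window bases that fall in annotated exons are left out of the first and second stretch. The first stretch lies at chr17:85688275-85688504 (minus strand), the second at chr14:98169766-98170015 (minus strand) and the third at chr12:73113326-73113354 (minus strand, within an annotated exon of Six4).

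Six2: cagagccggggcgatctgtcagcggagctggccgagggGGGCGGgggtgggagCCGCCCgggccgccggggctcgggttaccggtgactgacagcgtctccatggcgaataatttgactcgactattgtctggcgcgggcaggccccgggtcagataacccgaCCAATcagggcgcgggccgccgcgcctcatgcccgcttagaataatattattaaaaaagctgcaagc

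Dach1: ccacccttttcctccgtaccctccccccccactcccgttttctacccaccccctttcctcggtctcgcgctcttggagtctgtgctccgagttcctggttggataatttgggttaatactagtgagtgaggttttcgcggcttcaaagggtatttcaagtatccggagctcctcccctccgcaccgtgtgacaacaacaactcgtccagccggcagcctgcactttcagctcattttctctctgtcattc

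Six4, MEF3 letters: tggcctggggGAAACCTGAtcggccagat

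The Six2 window was rich in CpG, with 37 CpG dinucleotides and 67.3% GC, more CpG than 94.4% of the 32851 RefSeq windows, whose median was 7 CpG and 52.7% GC. The 2 Eya4 windows were of the same kind (36 and 28 CpG), the Eya3 window had 25, and the Six4 windows had 16 and 15. Dach1 was nearest to the median window, with 13 CpG and 54.0% GC. The Six2 window held the GC box, found in 35.7% of all windows, and the CCAAT box, found in 37.4%. The GC box was also in the windows of Eya3, Eya4 and Six4. The Dach1 window held none of the 5 motifs. The MEF3 letters were in 0.429% of all windows, and the match in Six4 lies 99 to 91 bases before a RefSeq start, on the strand opposite to the gene. The TATA box, found in 13.6% of all windows, was in no window of these genes. The hypoxia core, found in 43.8%, was in windows of Eya3, Eya4 and Six4. These are matches of letters and not mapped binding sites.

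The first comparison asked at what level each gene was present in WT, and in which order. Levels between genes were compared on the deposited RPKM scale, which divides reads by length and library size. Counts divided by the merged length of all exons of a gene gave the same log2 differences between genes. Another choice of length was not tried. Six2 was the highest by a wide margin, at 56.6 ± 9.07 RPKM (SD, n = 6). It was followed by Eya3 at 19.1 ± 1.28, Eya2 at 15.4 ± 1.06, Dach1 at 9.85 ± 1.77 and Eya1 at 9.19 ± 1.61 RPKM. Six4 (4.31 ± 0.467 RPKM) and Eya4 (3.69 ± 1.03 RPKM) were the lowest. Of the 6 neighbour pairs in this order, 4 differed in all 6 WT libraries, with ranges that did not overlap.

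For those 4 pairs the exact two-sided sign-flip permutation test over the 6 libraries gave p = 0.03125, the smallest it can give, and an adjusted p of 0.0469 over the 6 pairs. The pairs were set by the order of mean log2 RPKM in these same libraries. A pair that differs in the same direction in all 6 always gives this p, so it adds nothing to that count. The mean log2 difference was 1.55 ± 0.24 between Six2 and Eya3, 0.31 ± 0.15 between Eya3 and Eya2, 0.66 ± 0.35 between Eya2 and Dach1, and 1.08 ± 0.16 between Eya1 and Six4 (SD, n = 6). Dach1 and Eya1 did not differ beyond their spread (0.10 ± 0.48, Dach1 higher in 3 of 6 libraries, exact p = 0.594). Neither did Six4 and Eya4 (0.26 ± 0.23, Six4 higher in 5 of 6, exact p = 0.0625, adjusted 0.075). With any WT library left out no pair can pass the threshold, while the order of the means stayed as it was. The means over the 4 MD1 libraries fell in the same order, from 48.8 RPKM for Six2 to 3.07 RPKM for Eya4. Single MD1 libraries did not all keep it. In MD1 female replicate 4 Eya2 (13.6 RPKM) and Dach1 (12.7 RPKM) were above Eya3 (12.2 RPKM).

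**Figure D1:**
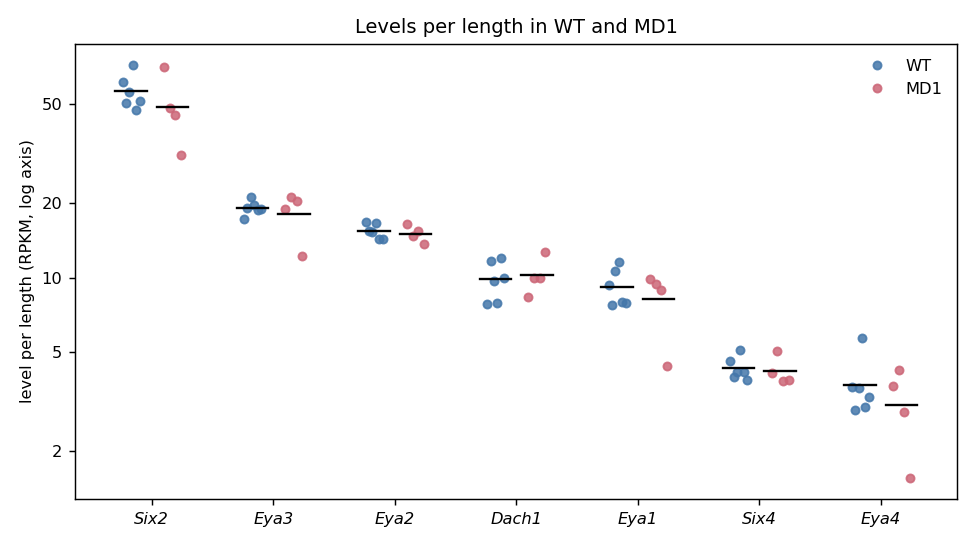
Level per length of each gene (RPKM, log axis) in the 6 WT and 4 MD1 libraries, with 1 point per library and a line at each group's mean. Six2 stands above the other 6 genes in both groups. In WT, Dach1 and Eya1 overlap, as do Six4 and Eya4, and in MD1 further neighbours overlap, among them Eya3 and Eya2.

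Among the co-activators, Eya3 made up 40.4 ± 2.92% of the summed Eya RPKM in WT (SD, n = 6), Eya2 32.6 ± 1.97%, Eya1 19.3 ± 1.84% and Eya4 7.71 ± 1.53%. In MD1 the shares were 40.6 ± 2.45%, 34.7 ± 5.71%, 18.0 ± 2.80% and 6.73 ± 1.61% (SD, n = 4). The range of each share in MD1 overlapped that in WT. In MD1 female replicate 4 the share of Eya2 reached 42.9%, above the WT range of 30.1 to 35.6%, and that of Eya1 was 13.9%, below the WT range of 17.2 to 21.6%.

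The second comparison asked whether loss of Smchd1 changed these genes. None of the 7 passed the test of MD1 against WT, which called 0.0777% of the 15452 autosomal genes (12 genes, 0.0712% higher and 0.00647% lower, edgeR's quasi-likelihood test, Benjamini-Hochberg threshold of 0.05). With all libraries none of the 7 reached an unadjusted p of 0.05 either, while 9.79% of all genes did, and none was called by DESeq2, the edgeR exact test or limma. By direction, 3 of the 7 were higher and 4 lower in MD1, with a median log2 fold change of -0.018. Of all genes tested, 7802 were higher and 7650 lower, with a median of 0.00286. The median size of the change without its sign was 0.124 for the 7 genes, 0.147 for all genes and 0.115 for genes within 1 log2 unit of their range of level. MD1 and WT libraries overlapped for every one of the 7. The share of all genes whose libraries overlap was not counted, so no contrast with other genes can be drawn.

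**Figure D2:**
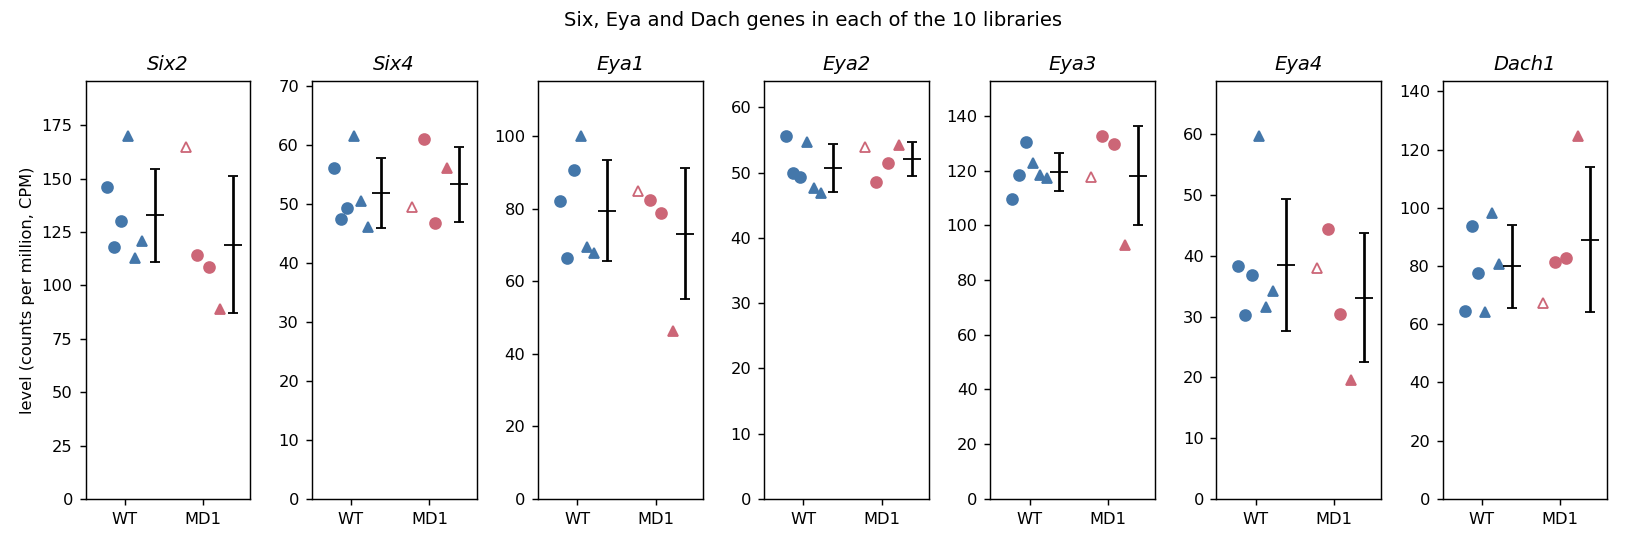
Levels in CPM of the 7 genes in each library, WT in blue and MD1 in red, with circles for libraries labelled male, triangles for those labelled female (open for MD1 replicate 1, whose Y-linked reads go against its label) and bars for the mean ± SD (n = 6 and 4). The groups overlap in all 7 panels, and the lowest points for Eya1 (46.3 CPM) and Eya4 (19.6 CPM) and the highest for Dach1 (125 CPM) are MD1 female replicate 4.

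Of the transcription factors, Six2 is known for keeping nephron progenitors undifferentiated and is also active in facial mesenchyme. The gene (ENSMUSG00000024134) lies on the minus strand at chr17:85684277-85688274 (GRCm38), with 2 merged exon blocks. In WT its lowest, median and highest levels were 113, 125 and 170 CPM, and in MD1 replicates 1 to 4 it stood at 165, 114, 109 and 89.0 CPM. The library labelled MD1 female replicate 1 was near the top of the WT range, and 2 of the other 3 MD1 libraries were below it. The means were 133 ± 21.7 in WT and 119 ± 32.2 in MD1, in CPM (SD, n = 6 and 4), with a log2 fold change of -0.15 (SE 0.16, 95% interval -0.51 to 0.20, edgeR adjusted p = 0.722). With the library labelled MD1 female replicate 1 left out it was -0.36 (95% interval -0.66 to -0.048). Its unadjusted p in edgeR's test was then 0.0271 and its adjusted p 0.374, in a fit where 1942 of 15590 genes had an unadjusted p under 0.05. Without MD1 female replicate 4 the log2 fold change of Six2 was -0.024.

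Six4, a factor of muscle and sensory development, showed a smaller spread. It lies on the minus strand at chr12:73099609-73113456 (ENSMUSG00000034460, 2 exon blocks), on the same chromosome as Six6. WT libraries ran from 46.1 over a median of 49.9 to 61.7 CPM, and the MD1 libraries were at 49.5, 61.0, 46.9 and 56.1 CPM, all inside the WT range. The means were 51.9 ± 5.91 and 53.4 ± 6.42 CPM, with a log2 fold change of 0.044 (SE 0.11, 95% interval -0.19 to 0.28, adjusted p = 0.885). The interval runs from 12.2% lower to 21.2% higher in MD1.

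Eya1 is the co-activator whose loss in mice removes the ear, kidney and thymus. It covers chr1:14168954-14310235 on the minus strand (ENSMUSG00000025932, 18 exon blocks). Its WT libraries had a lowest value of 66.5, a median of 75.9 and a highest of 100 CPM. MD1 replicates 1, 2 and 3 lay within that range at 84.9, 82.3 and 78.8 CPM, and only MD1 female replicate 4 lay below it, at 46.3 CPM. The means were 79.5 ± 13.9 and 73.1 ± 18.0 CPM. The log2 fold change was -0.12 (SE 0.17, 95% interval -0.50 to 0.25, adjusted p = 0.793), and it turned to 0.050 without that library.

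Eya2, a placode and muscle co-activator, had the narrowest interval for the difference between the genotypes. The gene (ENSMUSG00000017897) lies on the plus strand at chr2:165595032-165771727, with 18 exon blocks. It ranged from 46.9 over a median of 49.6 to 55.7 CPM in WT and stood at 54.0, 48.6, 51.5 and 54.3 CPM in MD1, again all within the WT range. With means of 50.7 ± 3.70 and 52.1 ± 2.66 CPM, the log2 fold change was 0.040 (SE 0.08, adjusted p = 0.858). Its 95% interval, -0.14 to 0.22, runs from 8.94% lower to 16.1% higher.

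Eya3 is the most widely expressed member of its family. It lies on the plus strand at chr4:132638987-132724765 (ENSMUSG00000028886, 20 exon blocks). Its WT libraries ran from 109 over a median of 118 to 131 CPM. MD1 replicates 1 to 4 were at 118, 133, 130 and 92.7 CPM, so that replicate 2 lay just above and replicate 4 below every WT library. The means, 119 ± 6.94 and 118 ± 18.2 CPM, gave a log2 fold change of -0.018 (SE 0.10, 95% interval -0.23 to 0.20, adjusted p = 0.955). The sign turned, to 0.084, without MD1 female replicate 4, and to 0.0095 without WT male replicate 3.

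Eya4, needed for hearing and heart function, was the most variable. It covers chr10:23102963-23350786 on the minus strand (ENSMUSG00000010461, 26 exon blocks). WT libraries had a lowest value of 30.3, a median of 35.6 and a highest of 59.8 CPM, the last in WT female replicate 4. The MD1 libraries stood at 38.0, 44.4, 30.4 and 19.6 CPM, and only replicate 4 left the WT range. The log2 fold change between the means, 38.5 ± 10.9 and 33.1 ± 10.7 CPM, was -0.22 (SE 0.23, 95% interval -0.73 to 0.29, adjusted p = 0.725). Without MD1 female replicate 4 it was -0.015.

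Dach1, the co-repressor, was 1 of the 3 genes that were higher in MD1, with Six4 and Eya2. It lies on the minus strand at chr14:97786853-98169765 (ENSMUSG00000055639, 12 exon blocks). WT libraries ran from 64.3 over a median of 79.2 to 98.1 CPM. MD1 replicates 1 to 3 were inside that range at 67.4, 81.4 and 82.6 CPM, and replicate 4 was above it at 125 CPM. The means were 79.9 ± 14.2 and 89.1 ± 24.8 CPM, with a log2 fold change of 0.16 (SE 0.17, 95% interval -0.22 to 0.53, adjusted p = 0.728). Without MD1 female replicate 4 the sign turned, to -0.057. No exon base of any of the 7 genes is shared with another annotated gene, although small genes lie inside Eya1, Eya2, Eya4 and Dach1.

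The other genes of the network were read from fixed lists. Of 28 listed genes 27 were found by symbol, 23 autosomal genes were tested, 12 were higher and 11 lower in MD1, and none passed the threshold (median log2 fold change 0.00978). Of the 23, 2 had an unadjusted p under 0.05 in edgeR's test, in a fit where 9.79% of all genes did. Both had an adjusted p of 0.496. They were Neurog1, a proneural factor of placodes, at -0.74 (6.60 ± 1.81 CPM in WT and 3.93 ± 1.47 CPM in MD1), and Tle3, a Groucho co-repressor, at -0.23 (180 ± 14.0 and 153 ± 17.1 CPM). With MD1 female replicate 4 left out they were at -0.48 and -0.16, each with an adjusted p of 0.839, and of the 23 genes 10 were higher and 13 lower (median -0.037, none called).

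Of the other SIX-family factors, 4 were tested, 2 in each direction. Six6, an eye and hypothalamus factor, had the largest difference, -0.37 (adjusted p = 0.750), at 2.35 to 12.4 CPM in WT. In the DACH and SKI family, Ski was at -0.18 (adjusted p = 0.518) and Skil at 0.31 (adjusted p = 0.526), both TGF-beta pathway co-repressors. Both values were smaller without MD1 female replicate 4, at -0.080 for Ski and 0.10 for Skil, whose level in that library was 183 CPM, against 99.3 to 118 CPM in the other MD1 libraries. The X-linked Dach2 was at 0.30 (adjusted p = 0.592) in the fit that kept sex chromosomes. MD1 replicates 1 to 4 had 7.85, 8.78, 16.7 and 11.7 CPM of it, against 7.15 to 9.93 CPM in WT. The highest of these came from 69 reads in MD1 male replicate 3, the shallowest library. The part of sex in this value, with MD1 female replicate 1 not matching its label, was not tested. Pax8, a thyroid and ear factor, had too few reads to be tested. The eye factor Pax6 was at 0.0098 (adjusted p = 0.990) and Pax2, of eye, ear and kidney, at 0.57 (adjusted p = 0.683), with an interval of -0.57 to 1.71. Pax2 was at 0.029 without MD1 female replicate 4.

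Among co-regulators of SIX-family proteins 6 were tested, 2 higher and 4 lower. Among them Tle4 was at 0.019 (adjusted p = 0.939) and Tle2 at -0.25 (adjusted p = 0.815). Of the 3 co-repressors that work with DACH proteins, 2 were higher and 1 lower, and the largest difference was that of Sin3a, at -0.16 (adjusted p = 0.645). Sin3a stood at 121 CPM in MD1 female replicate 4 and at 193 to 210 CPM in the other MD1 libraries, and its difference was -0.0025 when that library was left out. Of 8 reported targets 6 were tested, 3 in each direction. The cell-cycle gene Ccnd1, the highest of them, was at -0.37 (adjusted p = 0.629). Ccnd1 stood at 428 ± 28.8 CPM in the 6 WT libraries and at 332 ± 152 CPM in the 4 MD1 libraries (SD). Of the latter, MD1 female replicate 4 was at 111 CPM and the others at 352, 434 and 431 CPM, and without it the value was -0.075.

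**Figure D3:**
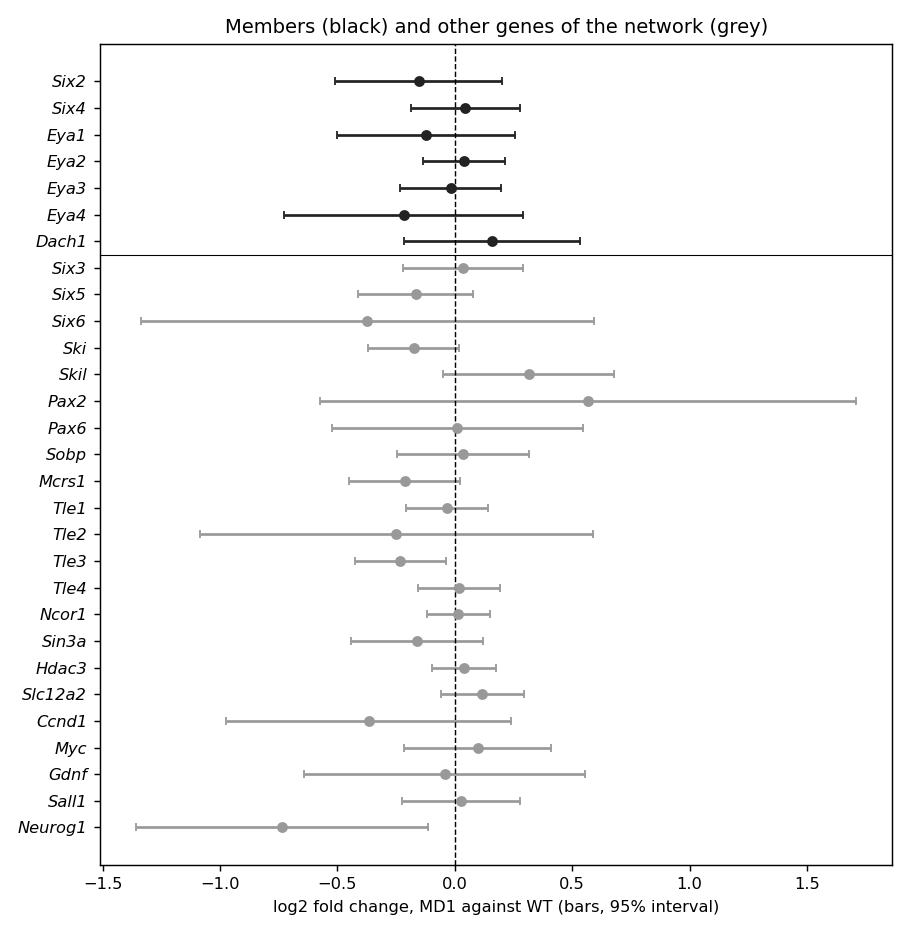
Estimated log2 fold change (MD1 over WT) and its 95% interval from edgeR for the 7 genes in black and other tested genes of the network in grey. All 7 intervals in black cross 0, and of the grey ones those of Tle3 and Neurog1 do not, although neither passed after adjustment.

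Sex was compared within WT, 3 libraries labelled female against 3 labelled male. None of the 7 genes passed the threshold, in a test that called 0.0449% of 15575 autosomal genes (7 genes), and 3% of all genes but none of the 7 had an unadjusted p under 0.05. The log2 fold changes ran from -0.051 for Eya2 to 0.27 for Eya4, each with an edgeR adjusted p of 0.9999. The value for Eya4 (95% interval -0.20 to 0.73) rested on WT female replicate 4, without which it was -0.089. DESeq2 called none of the 7 either.

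The 7 genes differed from each other in how much they varied between WT libraries. The coefficient of variation of the CPM in WT was 28.2% for Eya4, 17.8% for Dach1, 17.5% for Eya1 and 16.3% for Six2. Among genes of like level (within 1 log2 unit), these values were above those of 98.8%, 96.5%, 96.3% and 96.5% of genes. Six4 had 11.4% (above 80.4%), Eya2 7.29% (above 42.9%) and Eya3 5.81% (above 35.1%). Counting alone would give 2.28 to 4.21% in these genes. Several of these values rested on WT female replicate 4. Without it Eya4 had 9.96% (above 64.7% of genes), Six2 10.4% (above 86.7%) and Six4 7.73% (above 50.7%). Dach1 then had 16.2% and Eya1 14.1% (above 96.5% and 93.8%).

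The same libraries were at the extremes for several of the genes. WT female replicate 4 was the highest of the 10 libraries for Six2, Six4, Eya1 and Eya4 and the lowest for Dach1. MD1 female replicate 4 was the lowest for Six2, Eya1, Eya3 and Eya4 and the highest for Dach1. On the log2 scale against the WT mean, WT female replicate 4 was at 0.37 for Six2, 0.35 for Eya1, 0.67 for Eya4 and -0.29 for Dach1. MD1 female replicate 4 was at -0.56, -0.76, -0.93 and 0.66 for the same genes. Six4 (0.12) and Eya2 (0.10) in that library did not share its low values, and Eya3 was at 0.04 in WT female replicate 4.

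As a description over the 10 libraries, which all genes share along with their depth and cell content, Six2 and Dach1 had a Pearson correlation of log2 CPM of -0.91 (Spearman -0.93). It was -0.92 in the 6 WT libraries alone and -0.86 without MD1 female replicate 4. Eya1 and Eya4 had 0.90 (0.87 in WT alone, 0.80 without that library), and Six2 had 0.81 with each of them. Dach1 was also negative with these genes, at -0.89 with Eya1 and -0.85 with Eya4. Six2 and Six4 had 0.18 over all 10 libraries, 0.42 without MD1 female replicate 4 and 0.90 in WT alone. WT female replicate 4 was the highest library for both, and the WT value without it was not computed. In WT alone Eya3 had 0.014 with Six2, -0.12 with Six4 and -0.31 with Eya2. It had 0.41 with Eya1, 0.20 with Eya4 and 0.13 with Dach1 in these WT libraries. Over all 10 libraries it had -0.46 with Eya2 and 0.76 with Eya1, the latter 0.32 without MD1 female replicate 4. No test was made of these values.

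**Figure D4:**
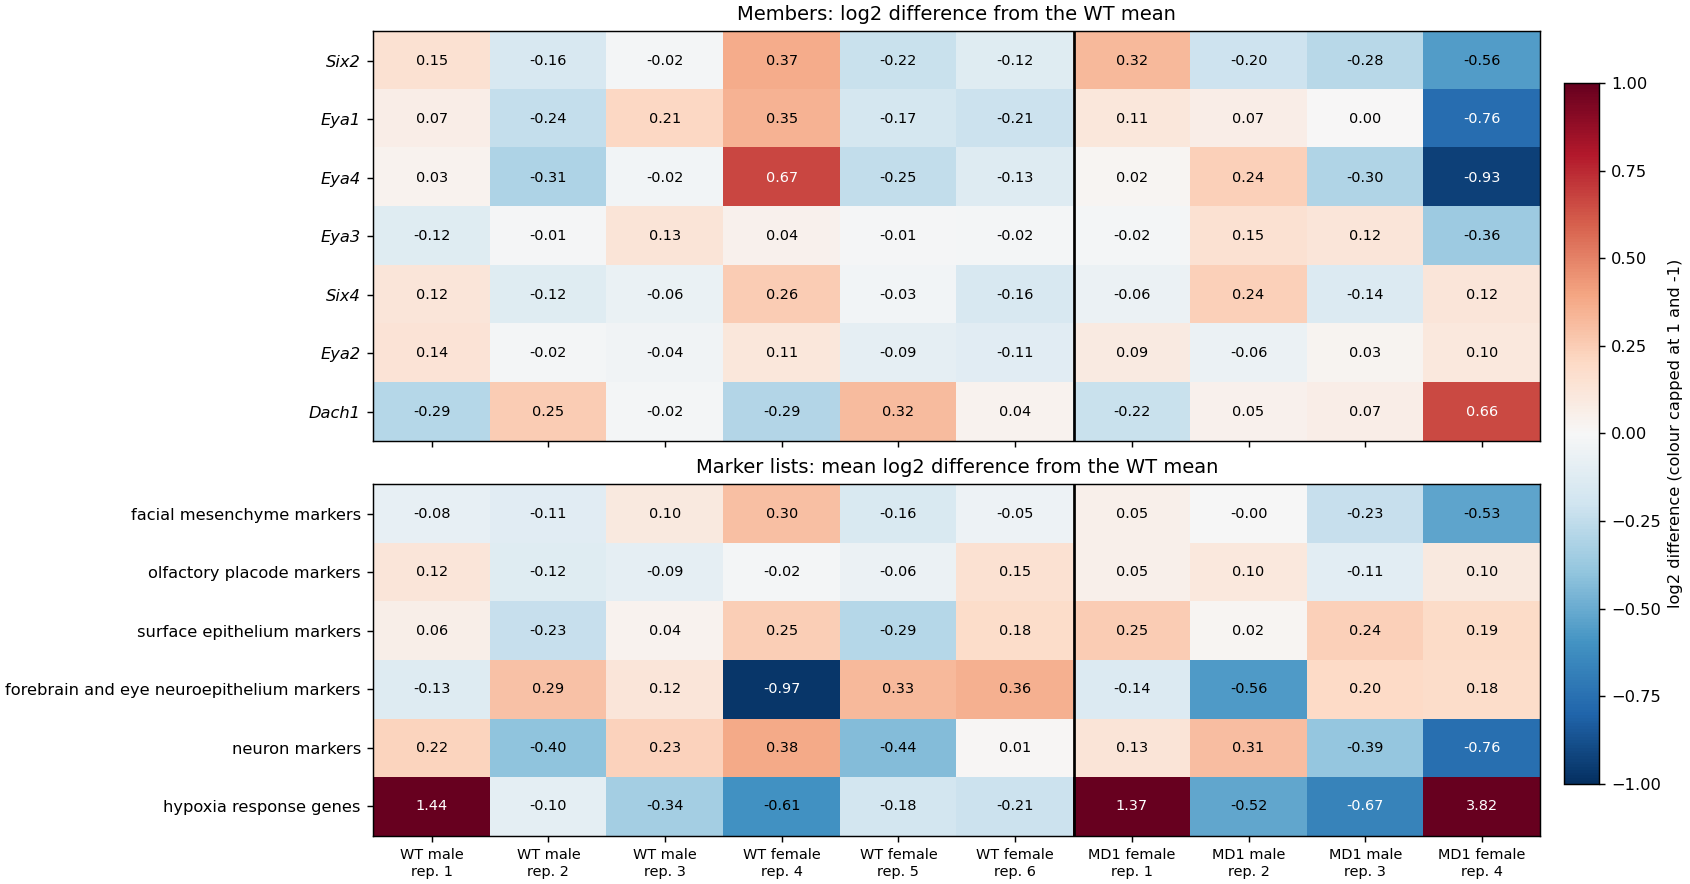
Log2 difference from the WT mean in each of the 10 libraries, above for the 7 genes and below as the mean over marker lists. Colours run from blue (lower) to red (higher) and are capped at 1 and -1. WT female replicate 4 is high for Six2 (0.37), Eya1 (0.35) and Eya4 (0.67) and for facial mesenchyme markers (0.30). MD1 female replicate 4 is low for them (-0.56, -0.76, -0.93 and -0.53), and Dach1 has the opposite sign in both.

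Marker lists moved with these libraries. The summed level of the 10 facial mesenchyme markers was highest in WT female replicate 4 (3540 CPM) and lowest in MD1 female replicate 4 (2157 CPM), as for Six2, Eya1 and Eya4. Across the genotypes all 10 were lower in MD1 and none passed the threshold (median log2 fold change -0.13). Leaving out MD1 female replicate 4 gave 5 higher and 5 lower (median -0.0018). Without the library labelled MD1 female replicate 1 all 10 were lower (median -0.25), and without both of these libraries 7 of 10 were (median -0.10). The forebrain and eye markers were lowest in WT female replicate 4 (241 CPM) and highest in MD1 female replicate 4 (432 CPM) by their sum. By their mean log2 difference the first was still the lowest (-0.97), but MD1 female replicate 4 was at 0.18, below MD1 male replicate 3 (0.20) and WT replicates 2, 5 and 6 (0.29, 0.33 and 0.36). Of the 8 tested, 3 were higher in MD1 (median -0.11), and 1 without MD1 female replicate 4 (median -0.13). Neuron markers stood at 312 CPM in the first and 141 CPM in the second of these libraries, the extremes of the 10. The part of these cell types in the levels of the 7 genes was not tested.

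The olfactory placode markers gave different pictures as a sum and as a mean of log2 values. Their sum was lowest in WT female replicate 4 (315 CPM) and highest in MD1 female replicate 4 (581 CPM, against 367 to 401 CPM in the other MD1 libraries). Their mean log2 difference from WT, in which each gene counts equally, lay between -0.12 and 0.15 in every library, at -0.02 in WT female replicate 4 and 0.10 in MD1 female replicate 4. Of the 10, 8 were higher in MD1 and none passed the threshold (median 0.22, and 0.052 without MD1 female replicate 4). The 12 surface epithelium markers, 11 of them higher in MD1 with a median of 0.24 (0.13 without MD1 female replicate 4) and none called, were at 0.25 and 0.19 in the same libraries.

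The hypoxia response genes were high in some libraries of both genotypes. Their mean log2 difference from WT was 3.82 in MD1 female replicate 4, 1.37 in MD1 replicate 1 and 1.44 in WT male replicate 1, and it was -0.52 and -0.67 in MD1 male replicates 2 and 3. In the fit of all 10 libraries all 11 were higher in MD1 with an unadjusted p under 0.05 and none was called (median log2 fold change 1.88). Of all genes, 9.79% had such a p in that fit. Without MD1 replicate 1 all 11 were higher (median 2.05), 10 of them with such a p, as had 1942 of 15590 genes. Once MD1 female replicate 4 was left out all 11 were still higher (median 0.44). None of them then had an unadjusted p under 0.05, while 908 of 15560 genes did. Without both libraries labelled MD1 female 9 of the 11 were lower (median -0.26).

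The erythroid markers were high in MD1 female replicate 4, with a mean log2 difference of 2.39, and at -0.15, 0.19 and -0.27 in MD1 replicates 1 to 3. All 5 that were tested were higher in MD1 (median 1.06), and 1 of 5 was without that library (median -0.12). The 3 yolk sac and liver markers tested were all higher with a median of 3.72, which was 3.85 without MD1 replicate 4, 1.20 without MD1 replicate 1 (2 of 3 higher) and -2.55 without both (0 of 3 higher). Their list summed to 340 CPM in MD1 replicate 1 and 84.8 CPM in replicate 4, against 0.946 to 28.8 CPM in WT, a range that held MD1 replicates 2 and 3. The 5 endothelial markers were all higher in MD1 (median 0.11), and 4 of 5 were without MD1 female replicate 4 (median 0.028). None of these markers was called in any of these fits. Macrophage markers summed to 19.9 to 27.5 CPM in WT and 19.6 to 22.3 CPM in MD1. The muscle progenitor markers Myf5, Myod1, Myog, Msc and Tcf21 were at 0 in some libraries and had too few reads to be tested.

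For each gene the autosomal genes whose log2 CPM ran most like it over the 10 libraries were named by Pearson's r. For Six2 they were Hpse2 (0.94) and 4932422M17Rik (0.93), for Six4 Zfp871 (0.95) and Btbd7 (0.94), and for Dach1 Tbx18 (0.95) and Gadl1 (0.94). For Eya1 they were Pik3r1 (0.98) and Ebf1 (0.97), for Eya2 Gm37459 and Palld (both 0.92), for Eya3 Etv6 (0.98) and Dcun1d2 (0.97), and for Eya4 Zfhx4 (0.99) and Asxl3 (0.98). These are the highest of 15452 values over the same 10 libraries. Of the 14 names, 2 stayed among the first 2 for their gene without MD1 female replicate 4, Ebf1 for Eya1 and Zfhx4 for Eya4.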

How the data were processed

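Per the labels and the study's methods, Trim Galore 0.4.4 trimmed the reads, HISAT2 2.0.5 aligned them to GRCm38.p6, and they were quantified per gene in SeqMonk, and the library kit does not mark strand. The deposited counts are whole reads per gene. The study describes the deposited log2 RPKM values as corrected for transcript length and library size. They were returned to a linear scale here. The authors' genotype means, a score per gene averaged over libraries in 2 columns, were not used. In 27 rows a symbol turned into a date was restored, and 49 rows repeating an identifier were dropped (the row with more reads was kept), leaving 35542 genes.

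Counts were tested in edgeR 4.0.16 (R 4.3.3) with TMM scaling of the 15982 genes that filterByExpr kept, on autosomes, with Benjamini-Hochberg adjustment, MD1 against WT (15452 genes) and female against male within WT (15575 genes). DESeq2 1.42.0, limma 3.58.1 and other filters, scalings and sample sets were alternatives. The order of levels was tested by exact sign flips. CPM used TMM-scaled library sizes, and log2 CPM a prior count of 2. Depth ranged from 4195119 to 24125084 counts per library, and counting error was 2.28 to 4.21% of the level of the 7 genes. All 45 pairs of libraries differed by more than sampling noise. In counts simulated for MD1 against WT, 65% of 200 changes of 1 log2 unit were recovered over 15452 genes.

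The 7 genes matched GENCODE M21 by identifier. The lists were of SIX-family, DACH and SKI members, PAX partners, SIX- and DACH-associated co-regulators, reported targets and markers of 10 cell types and the hypoxia response. From each network list, genes past the threshold were named, or else the one with the largest log2 fold change and the one with the highest level. Tle3 was named after its values were seen. The 2 genes most like each member were named by Pearson's r. The members, lists and rules were chosen with earlier results of these data known. Values of some listed genes are not reported here.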

Additional observations from a re-analysis of the deposited data

Results flagged for a closer look

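A gap test on the highest and lowest library was run on 38 groups of values, those of each named gene within WT and within MD1, where chance flags about 1 group in 20. It marked 4 values. Eya1 was 46.3 CPM in MD1 female replicate 4, with the other 3 MD1 libraries at 78.8 to 84.9 CPM. Eya4 was 59.8 CPM in WT female replicate 4, with the other 5 WT libraries at 30.3 to 38.4 CPM. Six6 was 11.8 CPM in MD1 male replicate 3, the shallowest library, with the others at 4.59 to 5.70 CPM, and the WT libraries ran from 2.35 to 12.4 CPM. Ccnd1 was 485 CPM in WT male replicate 3, with the other WT libraries at 410 to 424 CPM.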

How the results depend on the processing

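None of the 7 genes passed the threshold in either comparison under any alternative run. The lowest edgeR adjusted p of any of them for MD1 against WT was 0.374, for Six2 without MD1 replicate 1. The number of all genes called in MD1 against WT, 12 as reported, was 51 with DESeq2, 30 with the edgeR exact test, 4 with limma on log2 RPKM, 6 without both libraries labelled MD1 female and 4 to 13 with each library left out in turn (4 without WT replicate 2 or MD1 replicate 1, 5 without WT replicate 6, 6 without WT replicate 3, and 7 without WT replicate 1, WT replicate 5 or MD1 replicate 3). The replicate block, in libraries numbered 1 to 4, called 0, and the same 8 libraries without the block, an alternative chosen after seeing the data, called 3. The labels do not say whether same-numbered libraries were paired. Their deviations from the group means correlated at 0.00168, -0.074, 0.050 and -0.12, and none of the 4 WT libraries correlated best with its own number. These correlations cannot decide whether they were paired, since single libraries stood far apart from the rest. Female against male within WT called 32 genes with DESeq2, 36 with no filter, 26 with sex chromosomes kept, 0 with 4 group means and 0 to 4 with each library left out, against 7. The neighbour pairs past the threshold fell from 4 to 0 with each WT library left out, since 5 libraries cannot pass it.

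Apart from single libraries left out, signs that turned in MD1 against WT were those of Six4 and Eya2 with limma (both -0.037), with the block (-0.00636 and -0.00901) and in libraries 1 to 4 without it (-0.00327 and -0.00736), and those of Eya1 (0.023), Eya2 (-0.020) and Eya3 (0.14) without both libraries labelled MD1 female. With single libraries left out, Six4 turned without MD1 replicate 2, Eya1, Eya3 and Dach1 without MD1 replicate 4, and Eya3 without WT replicate 3. The log2 fold change then ran from -0.36 to -0.024 for Six2, -0.027 to 0.10 for Six4, -0.21 to 0.050 for Eya1, 0.018 to 0.072 for Eya2, -0.082 to 0.084 for Eya3, -0.39 to -0.015 for Eya4 and -0.057 to 0.27 for Dach1. For female against male the ranges were -0.17 to 0.15 (Six2), -0.073 to 0.14 (Six4), -0.22 to 0.095 (Eya1), -0.13 to 0.0064 (Eya2), -0.059 to 0.062 (Eya3), -0.089 to 0.42 (Eya4) and -0.13 to 0.18 (Dach1). Of the 14 genes named as most like a member, 4 stayed in place by Spearman's correlation and 2 without MD1 replicate 4. The values of lists, of other network genes and of the WT spread without single libraries were also chosen after seeing the data. The cause of these shifts was not tested.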
